A study of Drosophila melanogaster with 19 samples.

Results

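Gonialblast cysts (GB) were compared with the niche, the earliest stages of a series in which single germ cell cysts of the *Drosophila melanogaster* testis were sequenced. The comparison rests on 4 of 19 labelled libraries, 2 of GB and 2 of niche. Genes were taken from the deposited table of RPKM (reads scaled to gene length and library size), where at least 2 of 9 stage columns held a value of at least 1. This left 11814 of 12810 genes, of which 6741 reached 8 RPKM in GB or niche. A gene counted as higher or lower in GB when log2(value + 1) differed by at least 2, a 4-fold difference on that scale, and the higher side held at least 8 RPKM. Adding 1 shrinks the fold of genes with low values.

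Per the labels' protocols, the muscle sheath of dissected testes was torn with needles, spilled cysts were picked with a glass needle under the microscope, and mRNA was copied into cDNA from poly-dT primers and amplified. The labels describe both groups by stage alone, as Gonialblast and niche, and give no genotype, strain, age or treatment for either. Every group of the series, spermatocytes included, carries the same cell type label, germline stem cell (GSC). Nothing says that the libraries came from separate animals, or how many cells a niche library held, so the spread between libraries may be technical. The later stages used here are spermatogonial cysts of 4 cells (S4) and 8 cells (S8) with 2 libraries each, of 16 cells (S16) with 1, and early spermatocytes (EC) with 3.

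In the testis tip, germline stem cells surround a cluster of somatic hub cells that sends out the JAK-STAT ligand Unpaired and BMP ligands, while somatic cyst stem cells add BMP and receive Hedgehog. A stem cell daughter that loses contact with the hub becomes a gonialblast, is wrapped by somatic cyst cells, and begins a fixed number of synchronous divisions. The Bam protein then accumulates and ends those divisions, after which the cells become spermatocytes.

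The deposited table gives 1 value per stage, and the reads of each library were recovered from it because a stage value is a mean of whole reads per library. Libraries are lettered by size, a being the larger. Niche libraries a and b held 1360895 and 1064532 recovered reads in 7800 and 7602 genes, and GB libraries a and b held 1609853 and 1449781 reads in 6874 and 7471 genes. A count of 3 reads in a gene of 1 kb, taken as the floor of detection, stood at 2.10 and 2.65 RPKM in niche and at 1.40 and 1.58 RPKM in GB. No gene held more than 1 read per base in these 4 libraries, a ceiling of 701 and 884 RPKM in niche and of 468 and 526 RPKM in GB. Within a stage, 1705 genes differed at least 4-fold between the niche libraries and 1930 between the GB libraries, with 8 RPKM or more in the higher one. With 2 libraries against 2, the smallest two-sided p of an exact permutation test is 0.333, so differences are given as sizes and library values, with no p.

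In GB, 914 genes were higher than in niche, which is 7.74% of the genes compared, and 900 were lower, which is 7.62%. Both GB libraries lay above both niche libraries in 593 of the higher genes (5.02% of genes compared), and below both in 718 of the lower genes (6.08%). Over all genes compared, whatever the size of the difference, they lay above both in 12.5% and below both in 21.2%. Every GB library was at least 4-fold from every niche library in 267 of the higher genes (2.26%) and 321 of the lower genes (2.72%). The median difference was 0.00 over all genes compared and -0.26 over those with 8 RPKM in GB or niche. When stage columns were scaled to the same sum, the split became 1228 higher and 675 lower. One library set the size of a count in 2 cases: 1483 genes were lower without GB library b, and 1379 were higher without niche library b. At the threshold of 4-fold, *CG13822* lay just inside on the higher side and *Nedd4* just outside, and *Max* just inside on the lower side and *CG7039* just outside. At 8 RPKM, *CG3376* (8.02 RPKM in GB) was just inside and *CG31525* (7.99) just outside, and *twe* (8.03 RPKM in niche) was just inside and *ttk* (7.96) just outside.

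**Figure D1:**
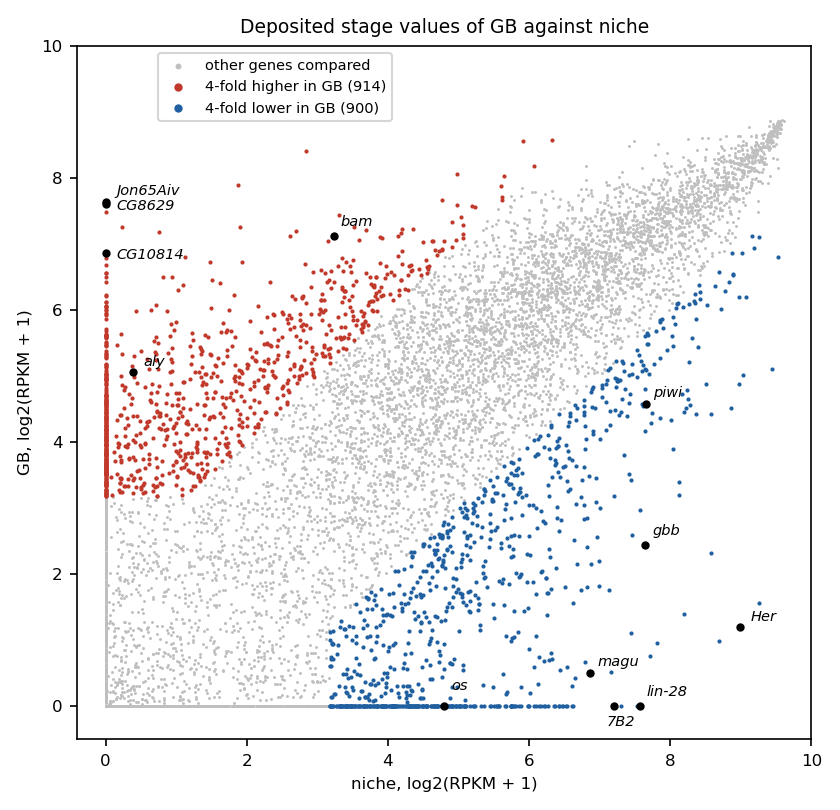
Deposited stage value of each gene compared, as log2(RPKM + 1), in niche on the horizontal axis and in GB on the vertical axis. Red points are the 914 genes at least 4-fold higher in GB and blue points the 900 at least 4-fold lower, and black points mark genes described in the text.

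Hub markers had reads in the niche libraries and few in GB. All 8 hub markers had reads in both niche libraries, where their levels summed to 528 and 237 RPKM. In GB, 2 and 3 of the 8 had a read, with sums of 2.36 and 11.0 RPKM, most of the latter from *gbb*. The 6 markers of the somatic cyst lineage summed to 126 and 51.6 RPKM in niche and to 0.0755 and 23.7 RPKM in GB. The 6 germline markers overlapped between the stages, at 343 and 462 RPKM in niche and 503 and 281 RPKM in GB. In bulk libraries, fewer cells of a type and less RNA per cell cannot be told apart. The niche libraries thus held hub, cyst and germ cell RNA together, beyond the cell type their label names. The cyst markers summed higher in GB library b than in a, with *tj* at 13.1 RPKM in b and no read in a. The wider list of 16 early cyst cell genes lay closer, at 105 RPKM in GB library a and 128 RPKM in b. Its member *piwi* went the other way, at 32.9 and 12.9 RPKM.

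*os* (current symbol *upd1*, FBgn0004956, BDGP6.54 chromosome X, 18305354 to 18309291, minus strand) encodes the Unpaired ligand of the hub. It stood at 51.1 and 2.48 RPKM in niche libraries a and b, from 208 and 8 reads. No read was found in either GB library or in S4 or S8. Its mean level in niche was at least 48.5-fold above the GB floor of 3 reads in the shallower library, and niche library b by itself at least 4.48-fold.

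*gbb* (FBgn0024234, chromosome 2R, 23851562 to 23853247, plus strand), a BMP ligand, stood at 244 and 155 RPKM in niche and at 0 and 8.83 RPKM in GB. *magu*, a secreted protein that promotes BMP signalling from the hub, stood at 180 and 50.8 RPKM in niche and at 0.840 and 0 RPKM in GB. The groups did not overlap in either gene. They parted in the later cysts, where *gbb* stood at 106 and 20.8 RPKM in S4 and 58.8 and 20.6 RPKM in S8, while *magu* stood at 0.450 RPKM or less in those 4 libraries. *esg*, a Snail-family factor that maintains the hub, stood at 42.9 and 13.9 RPKM in niche, at 0 and 1.15 RPKM in GB, and had no read in S4 or S8. The hub adhesion genes *CadN* and *Fas3* had no read in GB, but held only 7.90 and 2.41 RPKM and 0.122 and 9.07 RPKM in niche.

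In the hub list of 14 genes compared, 4 were lower in GB (28.6%), *magu*, *gbb*, *os* and *esg*, and none was higher. That count was 4 without any one of the 4 libraries, but not always of the same genes. Without niche library a, *os* (2.48 RPKM in b) fell under 8 RPKM and *Fas3* (9.07 RPKM in b) took its place. The list's median difference was -0.97, and it was -0.68 and -1.65 under sum and quantile scaling. *hh*, the Hedgehog ligand of the hub, did not share the pattern, at 0.681 and 1.15 RPKM in niche and 1.51 and 1.02 RPKM in GB, from 3 and 4 reads and from 10 and 6 reads. None of the 13 genes of the Hedgehog list counted as higher or lower. *ptc*, of that list, had a difference of -2.73, but its niche value of 5.63 RPKM was under 8 RPKM. It stood at 9.50 and 1.76 RPKM in niche and had no read in GB.

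The JAK-STAT list held 4 lower genes of 14 compared (28.6%) and no higher one. *Socs36E*, a feedback inhibitor that STAT switches on, stood at 52.5 and 9.84 RPKM in niche and had no read in GB. Its mean level in niche was at least 69.2-fold above the GB floor, and niche library b by itself at least 21.9-fold. *et*, a receptor-like inhibitor of the pathway, stood at 4.36 and 15.4 RPKM in niche and at 0 and 0.218 RPKM in GB. *apt*, which limits STAT activity, stood at 54.8 and 104 RPKM in niche and at 19.7 and 0.448 RPKM in GB. The ligand gene *os* and the target *Socs36E* thus both lacked reads in the 2 GB libraries. *zfh1*, of the same list, overlapped between the stages, at 6.57 and 2.85 RPKM in niche and 0.0755 and 4.24 RPKM in GB. The list's median difference was -0.43.

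The BMP list was mixed: 3 of 17 genes were lower (17.6%), *magu*, *gbb* and *Dad*, and 1 was higher (5.88%). *Dad*, the inhibitory Smad that BMP signalling switches on in stem cells, stood at 44.3 and 0.452 RPKM in niche and at 0 and 3.09 RPKM in GB. Its niche value rested on library a, and without that library the difference was 0.81, toward GB. The higher gene was *Sara*, an anchor that presents Smads to receptors, at 3.18 and 1.34 RPKM in niche and 12.4 and 16.3 RPKM in GB. Its level was again 8.62 to 24.2 RPKM in the S4 and S8 libraries. The list's median was 0.00.

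Genes of early somatic cyst cells were lower in 6 of 16 members (37.5%) and higher in none. The lower 6 were *Socs36E*, *so*, *piwi*, *Wnt4*, *tj* and *wdp*. The groups did not overlap in any of them, which also held for 718 of all 900 lower genes. In *wdp* they barely parted, at 2.539 and 21.6 RPKM in niche and 0.141 and 2.538 RPKM in GB. *tj*, a Maf factor of early cyst cells, stood at 50.1 and 34.8 RPKM in niche and at 0 and 13.1 RPKM in GB. *Wnt4*, a Wnt ligand, stood at 31.0 and 38.6 RPKM in niche and at 4.37 and 4.27 RPKM in GB. *so*, a Six-family partner of Eya, stood at 18.5 and 1.71 RPKM in niche and had no read in GB. The markers *eya* and *zfh1* stood at 6.66 RPKM or less in niche and GB. The list's median difference was -1.84, and it was -1.51 and -1.66 under sum and quantile scaling.

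Extracellular matrix genes were lower in 5 of 14 members (35.7%) and higher in 1. The laminin genes among the lower members, *LanA*, *LanB1* and *LanB2*, lay at 33.0 to 83.0 RPKM in niche and at 2.09 to 22.2 RPKM in GB. The list also named the laminin gene *wb*, which was not among the lower members. *LanB1*, for the beta chain, stood at 48.0 and 60.1 RPKM in niche and at 2.09 and 7.97 RPKM in GB. *trol*, the basement membrane proteoglycan perlecan, stood at 28.6 and 36.7 RPKM in niche and at 3.06 and 9.44 RPKM in GB. Each of these genes was higher in GB library b than in a, as the sum of the cyst cell markers was, and without GB library a 2 members were lower. *Timp*, a metalloproteinase inhibitor, came from niche library a alone (43.7 RPKM, 0 in b). The higher member, *Ppn*, an ADAMTS-like matrix protein, came from GB library b alone (29.4 RPKM, 0 in a), and its difference was -1.30 without that library.

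**Figure D2:**
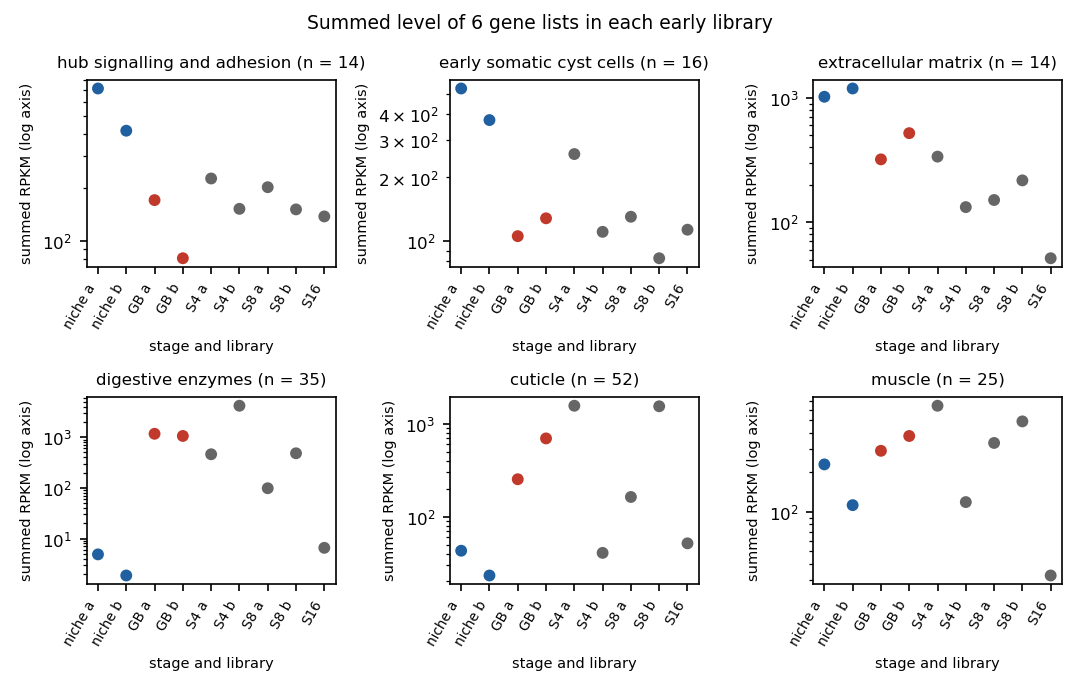
Summed RPKM of 6 gene lists in each early library, on log axes, with niche in blue, GB in red and the later cysts in grey. Hub, cyst cell and matrix lists lie above GB in both niche libraries, and digestive and cuticle lists lie above niche in both GB libraries. The digestive and cuticle lists vary widely between libraries of S4 and of S8, and the muscle list between those of S4.

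Genes of EGFR signalling between germ cells and cyst cells were lower in 3 of 19 members (15.8%). *stet*, the rhomboid protease that releases the Spitz ligand in germ cells, stood at 39.4 and 85.0 RPKM in niche and had no read in GB. It stood at 14.2 to 56.9 RPKM in the 4 libraries of S4 and S8. *grk*, a ligand of the same receptor, stood at 100.4 and 25.2 RPKM in niche, at 1.63 and 0 RPKM in GB, and at 10.6 to 21.8 RPKM in S4 and S8. Both GB libraries lay below every niche, S4 and S8 library in both genes, while S16 was listed at 0 for *stet*. *aos*, a secreted antagonist that the pathway induces, stood at 31.4 and 0.307 RPKM in niche and had no read in GB. The count was 6 without GB library a and 5 without niche library b.

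In the Notch list, 3 of 15 genes were lower (20%) and 1 was higher. *fng*, a glycosyltransferase that tunes the Notch receptor, stood at 122 and 70.2 RPKM in niche and at 0.476 and 0 RPKM in GB. *HLHmbeta*, an Enhancer of split gene that Notch switches on, stood at 192 and 102 RPKM in niche and at 0 and 16.1 RPKM in GB. *neur*, a ubiquitin ligase that activates Delta, stood at 52.7 and 15.2 RPKM in niche and at 0 and 9.90 RPKM in GB. The list's median difference was 0.75, opposite in sign to these genes. The higher gene was *kuz*, the protease that cleaves Notch, at 0.744 and 5.31 RPKM in niche and 29.1 and 6.51 RPKM in GB.

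*bam* (FBgn0000158, chromosome 3R, 25243039 to 25245109, minus strand), which ends the amplifying divisions, was higher in GB. Niche libraries a and b held 0 and 16.8 RPKM (0 and 38 reads), and GB libraries a and b held 196 and 78.4 RPKM (837 and 298 reads). The S4 libraries held 129 and 167 RPKM and the S8 libraries 154 and 176 RPKM. All 6 cyst libraries lay above both niche libraries, and GB overlapped with S4 and S8. Among *bam* and its partners and regulators, 3 of 12 genes were higher (25%) and 1 was lower. Without GB library a, 1 gene was higher.

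The other higher members were RNA regulators known from the ovary and from neural stem cells. *brat*, a TRIM-NHL translational repressor, had 1 read in niche and stood at 13.3 and 6.77 RPKM in GB. *A2bp1* (current symbol *Rbfox1*), a splicing factor, stood at 1.10 and 0.230 RPKM in niche and at 8.22 and 7.94 RPKM in GB. Both stayed above the niche values in all S4 and S8 libraries, at 6.27 to 34.3 RPKM. The lower member was *how*, a STAR-family RNA-binding protein known to repress *bam* RNA in stem cells, at 11.6 and 16.9 RPKM in niche and with no read in GB. *bgcn*, the partner of Bam, overlapped between the stages, at 32.8 and 56.5 RPKM in niche and 60.6 and 31.6 RPKM in GB.

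*lin-28* (FBgn0035626, chromosome 3L, 5654681 to 5657384, plus strand) encodes an RNA-binding protein known for blocking the maturation of let-7 microRNA. It stood at 157 and 221 RPKM in niche, from 257 and 288 reads, and had no read in either GB library. That put niche at least 138-fold above the GB floor. Of the later libraries, S4 library a alone held it, at 10.4 RPKM, and S8, S16 and EC were listed at 0. *msi* (Musashi), an RNA-binding protein that maintains germline stem cells, stood at 22.4 and 19.8 RPKM in niche and at 3.93 and 0.384 RPKM in GB. Of 23 RNA-binding regulators of stem cells and early germ cells, 3 were lower (13.0%), *lin-28*, *how* and *msi*, and 2 were higher (8.70%), *bam* and *brat*. Their median difference was 0.05.

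The list of piRNA and nuage genes, which silence transposons, had 3 lower genes of 27 (11.1%) and 1 higher. *piwi*, the nuclear Argonaute that works in hub, cyst and germ cells, stood at 197 and 205 RPKM in niche and at 32.9 and 12.9 RPKM in GB. *spn-E*, a nuage helicase, stood at 90.1 and 63.4 RPKM in niche and at 13.2 and 2.93 RPKM in GB. Levels of *piwi* stayed at 12.4 to 54.7 RPKM in S4 and S8. *BoYb*, a Tudor protein, came mainly from niche library b (19.0 RPKM, 1.19 in a) and had no read in GB. The higher gene, *CG9754* (*Panx*), which drives silencing downstream of Piwi, came mainly from GB library a (76.8 RPKM, 1.33 in b). The list's median was -0.40, and 0.07 under sum scaling. The lower count was 5 without either GB library, and leaving out GB library b or niche library b gave 3 or 4 higher genes.

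The 15 largest differences toward niche included genes outside these pathways. *Her* (current symbol *Hesr*, FBgn0030899), a HES-related bHLH gene on chromosome X (18204403 to 18205144, minus strand), stood at 497 and 521 RPKM in niche and at 0 and 2.57 RPKM in GB. *CG9336* (*bero*), a Ly6-family gene, stood at 542 and 679 RPKM in niche and at 0 and 3.91 RPKM in GB. Both were even between the niche libraries and had at most 3 and 6 reads in a GB library. Their niche levels lay beside ceilings of 701 and 884 RPKM, and the part of the ceiling in that evenness was not tested. *CG3509* (*BigH1*), the linker histone of early embryos and germ cells, stood at 141 and 226 RPKM in niche and had no read in GB. It was listed at 0 in S8 and at 116 RPKM in EC, with 0 and 19.9 RPKM in the S4 libraries. *7B2*, a chaperone of prohormone convertase, stood at 223 and 70.6 RPKM in niche and had no read in GB, S4 or S8. *atilla*, another Ly6-family gene, differed in its support: niche library a held 194 RPKM and no other niche or GB library a read.

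**Figure D3:**
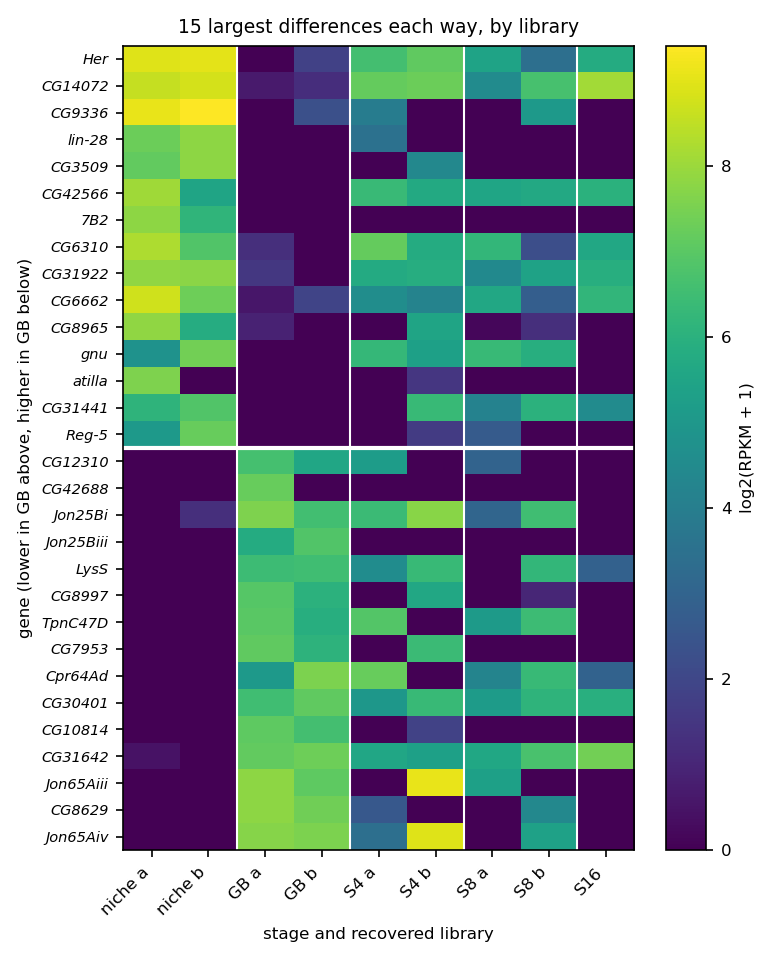
Levels, as log2(RPKM + 1), of the 15 genes with the largest difference in each direction, by library. Lower genes in GB stand above the white line and higher genes below it. In 14 of the 15 lower genes both GB libraries lay below both niche libraries, *atilla* being the exception. In 14 of the 15 higher genes both lay above, *CG42688* being the exception. The genes were picked by the difference between these same libraries, which favours libraries that lie apart. Over all called genes, the libraries lay apart in 718 of 900 lower and 593 of 914 higher genes.

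For 189 of the 900 lower genes (1.6% of genes compared), the low value was seen in GB and not in S4 or S8. Those 2 stages each held at least 8 RPKM and at least 4-fold the GB value, while S16 was not part of this rule. The libraries of GB lay below both of niche in 160 of the 189 genes, and in 151 every S4 and S8 library lay above both GB libraries. GB was listed at 0 in 52. Without GB library a this count was 364, and without b it was 634. A further 322 lower genes stayed under 8 RPKM in both S4 and S8.

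*Her* was the returning gene with the highest niche value, at 95.3 and 136 RPKM in S4 and 43.1 and 9.90 RPKM in S8. *CG14072* stood at 383 and 444 RPKM in niche, at 0.601 and 1.35 RPKM in GB, at 146 and 157 RPKM in S4 and at 22.2 and 102 RPKM in S8. *Jheh2*, a juvenile hormone epoxide hydrolase, stood at 415 and 243 RPKM in niche, 38.4 and 2.27 RPKM in GB, and 85.3 to 134 RPKM in S4 and S8. *CG6662* (*GstO1*), a glutathione transferase, stood at 425 and 162 RPKM in niche, at 0.493 and 2.77 RPKM in GB, and at 5.95 to 48.6 RPKM in S4 and S8. The rule for returning genes drew on these same values, which favours libraries that lie apart. Over all 189, both GB libraries lay below both niche libraries in 160, and below every S4 and S8 library in 151. Of the 10 returning genes with the highest niche values, both GB libraries lay below every niche, S4 and S8 library in all 10. The others were *CG3624* (*babos*), *CG11750*, *CG31922*, *CG13690*, *CG6310* and *gbb*.

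Of 33 replication genes 2 returned in this sense, *DNApol-alpha50* and *CDC45L*, as did 2 of 33 mitosis genes, *gnu* and *CycB3*, and 1 of 30 spermatid and sperm genes, *twe*. *DNApol-alpha50*, the primase subunit that starts each new strand, stood at 29.2 and 170 RPKM in niche, at 0 and 0.673 RPKM in GB, and at 83.2 to 134 RPKM in S4 and S8. *gnu*, the activating subunit of the PAN GU kinase, stood at 26.7 and 168 RPKM in niche, had no read in GB, and stood at 40.1 to 79.8 RPKM in S4 and S8. *CycB3*, a mitotic cyclin, stood at 29.0 and 28.2 RPKM in niche, at 0.736 and 0.414 RPKM in GB, and at 25.7 to 64.1 RPKM in S4 and S8. *CDC45L*, a part of the replicative helicase, stood at 21.6 and 57.7 RPKM in niche and at 6.06 and 0 RPKM in GB. *twe*, the meiotic Cdc25 phosphatase, stood at 2.66 and 13.4 RPKM in niche, at 0 and 1.99 RPKM in GB, and at 27.6 to 91.4 RPKM in S4 and S8. In S16, *gnu* was listed at 0, *CycB3* at 1.27 RPKM and *twe* at 2.26 RPKM, so their low value was not confined to GB. *DNApol-alpha50* and *CDC45L* stood at 29.6 and 20.6 RPKM there.

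As a group, replication genes did not part the stages: 2 of 33 were lower (6.06%) and 2 were higher (6.06%), with a median difference of -0.08 that was 0.39 and 0.01 under sum and quantile scaling. The GB libraries differed from each other, with summed levels of 3617 RPKM in a and 1801 RPKM in b, beside 3903 and 4612 RPKM in niche. Without GB library a, 14 of the 33 were lower, and without niche library b, 8 were higher. *Cdc6*, which loads the helicase, showed the gap, at 57.0 RPKM in GB library a and 0.632 RPKM in b, with 3.65 and 1.77 RPKM in niche. Its difference was 3.01, and -1.19 without GB library a. *Psf1*, a GINS subunit, was higher in both, at 105 and 34.3 RPKM in GB and 8.43 and 11.4 RPKM in niche.

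Of 33 mitosis genes, 4 were lower (12.1%) and 2 were higher (6.06%), and 9 were lower without GB library a. *aur* (Aurora A kinase) stood at 191 and 216 RPKM in niche and at 74.4 and 24.1 RPKM in GB, and *asp*, a spindle pole protein, at 33.9 and 63.7 RPKM and at 5.66 and 6.36 RPKM. *Bub1*, a checkpoint kinase, was higher in both GB libraries, at 42.7 and 16.3 RPKM beside 0.184 and 6.73 RPKM in niche. *png*, the PAN GU kinase, was present in GB library a alone, at 85.2 RPKM, and its difference was -2.43 without that library. The mitosis list summed to 2609 RPKM in GB library a and 1545 RPKM in b. Both lists thus summed lower in b, while the cyst cell markers and the matrix list summed higher in b. What part the cyst cell RNA plays in these values was not tested.

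Of the 914 higher genes, 562 recurred (4.76% of genes compared), with at least 8 RPKM and at least 4-fold the niche value in S4 or S8, and 339 recurred in both. These comparisons share the niche libraries. Another 212 did not recur (1.79%), with S4 and S8 both at least 4-fold below GB. By these rules 6 genes were in both sets and 146 in neither. Both GB libraries lay above both niche libraries in 418 of the 562 and in 88 of the 212. One GB library held no read in 104 of the 562 and in 113 of the 212. Without niche library b, 970 genes recurred.

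Recurring genes with the highest GB values included testis paralogues of general machinery. *Rpt4R*, a testis-enriched copy of a proteasome ATPase, stood at 20.1 and 32.3 RPKM in niche, 119 and 284 RPKM in GB and 122 to 168 RPKM in S4 and S8. *CG8335* (*eIF3f2*), a copy of a translation initiation factor subunit, stood at 68.5 and 29.6 RPKM in niche, 217 and 300.5 RPKM in GB and 190.2 to 289.8 RPKM in S4 and S8. *Mov34*, a subunit of the proteasome lid, stood at 36.2 and 35.0 RPKM in niche, 205 and 174 RPKM in GB and 121 to 225 RPKM in S4 and S8. In these 3 genes every GB, S4 and S8 library lay above both niche libraries. *CG12477*, *CG32259* and the long non-coding RNA *CG43132* had the same form, with GB values of 379, 233 and 374 RPKM and niche values of 78.8, 47.7 and 59.2 RPKM.

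*CG30401* (*dany*), a gene studied in spermatocytes, had no read in niche, 91.9 and 138 RPKM in GB, 30.9 to 80.8 RPKM in S4 and S8, and 132 RPKM in EC. *CG31642* stood at 0.360 and 0 RPKM in niche, 141 and 162 RPKM in GB, 39.7 to 104 RPKM in S4 and S8, and 228 RPKM in EC. *GstD7*, a glutathione transferase, differed in EC, at 269.5 and 262 RPKM in GB and 71.9 to 247 RPKM in S4 and S8, with 0.978 and 60.4 RPKM in niche and 0.863 RPKM in EC. The first pair thus stayed high into spermatocytes, and *GstD7* did not.

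Polycomb group genes were higher in 4 of 20 members (20%) and lower in 1, with a median difference of 0.85 that was 1.32 and 0.68 under sum and quantile scaling. *escl*, a paralogue of the methyltransferase subunit Esc, had no read in niche and stood at 22.8 and 23.8 RPKM in GB. *calypso*, the histone H2A deubiquitinase, stood at 15.2 and 12.5 RPKM in niche and at 172 and 35.0 RPKM in GB. *Pc* and *Scm*, parts of the PRC1 repressor, stood at 44.3 and 33.6 RPKM in GB library a and at 1.09 and 1.55 RPKM in b. The count was 1 without GB library a. The lower member, *Jarid2*, stood at 27.8 and 20.9 RPKM in niche and 5.31 and 2.61 RPKM in GB.

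Insulin and TOR genes were higher in 4 of 17 members (23.5%) and lower in none, with a median difference of 0.35. Their summed level went the other way, at 972 and 1001 RPKM in niche and 739 and 704 RPKM in GB. *rictor*, a core part of the TORC2 kinase complex, stood at 3.72 and 3.89 RPKM in niche and at 23.4 and 31.6 RPKM in GB. *chico*, the insulin receptor substrate, stood at 1.09 and 1.10 RPKM in niche and at 6.99 and 15.2 RPKM in GB, and *Akt1*, the kinase downstream, at 0.753 and 2.85 RPKM and at 8.03 and 18.1 RPKM. The receptor gene *InR* came from GB library a, at 23.4 RPKM, with 0.634 RPKM in b. Without GB library b the count was 2. *ImpL2*, a secreted inhibitor of insulin signalling, stood at 36.1 and 29.6 RPKM in niche and had no read in GB.

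Digestive enzyme genes showed the highest share of any list. Of 35 members compared, 21 were higher in GB (60%) and none was lower, with a median difference of 3.65 that was 3.91 and 3.79 under sum and quantile scaling. Their summed level was 4.87 and 1.86 RPKM in niche and 1171 and 1061 RPKM in GB. The groups did not overlap in 17 of the 21, and every pair of libraries was 4-fold apart in 15. Among all 914 higher genes, these counts were 593 and 267. The count ranged from 15 without GB library b to 23 without GB library a.

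*Jon65Aiv*, a serine protease of the gut, had no read in niche and stood at 208 and 188 RPKM in GB, at least 68.3-fold above the niche floor. In S4 it stood at 9.96 and 496 RPKM, and in S8 at 0 and 41.3 RPKM. *Jon65Aiii* stood at 0 and 0 RPKM in niche, 222 and 134 RPKM in GB, 0 and 545 RPKM in S4 and 40.2 and 0 RPKM in S8. Both genes were even between the GB libraries and uneven between the libraries of S4 and of S8. The lysozyme gene *LysS*, of the digestive cluster, stood at 87.5 and 90.8 RPKM in GB, with no read in niche. *Jon25Biii* stood at 55.0 and 115 RPKM in GB and had no read in niche, S4 or S8. Members of these gene families are close copies, and the counting of reads they share is not given in the sources used here, so values of single members are uncertain.

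The summed level of the 4 gut markers was 0 in both niche libraries, 561 and 480 RPKM in GB, 10.3 and 1501 RPKM in S4, and 40.2 and 42.3 RPKM in S8. The same 35 digestive genes summed to 462 and 4191 RPKM in S4, 98.4 and 482 RPKM in S8 and 6.55 RPKM in S16. The sum thus differed more between the libraries of S4, and between those of S8, than between those of GB. The part of RNA from outside the cyst in these values was not tested.

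Cuticle genes were higher in 12 of 52 members (23.1%) and lower in none, with a median difference of 0.00. *Cpr64Ad* had no read in niche and stood at 32.4 and 187 RPKM in GB, 149 and 0 RPKM in S4 and 18.1 and 80.2 RPKM in S8. *Lcp65Af* stood at 0 and 0 RPKM in niche, 1.14 and 87.2 RPKM in GB, 279.5 and 0 RPKM in S4 and 11.9 and 308 RPKM in S8. The summed list stood at 42.9 and 23.2 RPKM in niche, 253 and 696 RPKM in GB, 1566 and 40.6 RPKM in S4, and 163 and 1545 RPKM in S8. High and low libraries alternated within S4 and S8, and the higher libraries of S4 differed between the digestive list (b) and the cuticle list (a).

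Muscle genes were higher in 6 of 25 members (24%) and lower in 3 (12%), and 3 were higher without GB library b. *TpnC47D*, a troponin C, had no read in niche and stood at 127 and 59.0 RPKM in GB, and *Act57B*, a muscle actin, at 13.2 and 34.9 RPKM. *Mlc2*, a myosin light chain, overlapped between the stages, at 91.1 and 23.6 RPKM in niche and 80.9 and 93.6 RPKM in GB. *Mhc*, the muscle myosin heavy chain, stayed at 0.214 and 2.65 RPKM in GB and at 0.0804 and 0 RPKM in niche. The 7 markers of the muscle sheath summed to 91.2 and 25.6 RPKM in niche, 223 and 212 RPKM in GB, 362 and 50.1 RPKM in S4, and 145 and 282 RPKM in S8. The lower members were *Zasp52*, *Mef2* and *Act79B*, and the last came from niche library b (28.5 RPKM), with a difference of 0.43 without it. The part of sheath RNA in these values was not tested.

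Of the 212 genes whose GB value did not recur, 99 had reads in both GB libraries, while GB library a held no read of 44 and GB library b none of 69. For 114 of them S4 and S8 were listed at 0. Every pair of GB and niche libraries was 4-fold apart in 52 of the 212. The 10 with the highest GB values were all present in both GB libraries, above both niche libraries. *CG4269* stood at 197 and 146 RPKM in GB, 16.1 and 1.69 RPKM in niche and had no read in S4 or S8. *CG14302* stood at 224 and 249.8 RPKM in GB, 5.38 and 0 RPKM in niche and at most 11.6 RPKM in S4 and S8, but it was listed at 86.5 RPKM in S16. *CG10814* stood at 134 and 96.8 RPKM in GB, had no read in niche, and held 2.60 RPKM in S4 library b as its sole value in S4 and S8.

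Several of the top non-recurring genes encode enzymes. *Gs1*, a glutamine synthetase, stood at 135 and 158 RPKM in GB, 2.62 and 21.3 RPKM in niche and 0 to 26.9 RPKM in S4 and S8. *GlyP*, glycogen phosphorylase, stood at 186 and 85.2 RPKM in GB, 30.1 and 34.6 RPKM in niche and 5.27 to 40.2 RPKM in S4 and S8. *Fmo-2*, a flavin monooxygenase, stood at 135 and 136 RPKM in GB, 16.1 and 12.3 RPKM in niche and 1.48 to 29.0 RPKM in S4 and S8. *CG8207* (*Gmppa*), of GDP-mannose synthesis, stood at 132 and 128 RPKM in GB and 11.8 and 4.01 RPKM in niche. In these 4 genes both GB libraries lay above every niche, S4 and S8 library. *Pebp1* (329 and 343 RPKM in GB) and *CG8629* (*Acbp4*, an acyl-CoA-binding protein, 222 and 166 RPKM) met both rules. In both, S4 or S8 held 8 RPKM or more and at least 4-fold the niche value. *CG7966* completed the 10, at 167 and 73.8 RPKM in GB.

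Genes at 8 RPKM or more in EC made up 71 of the 212 non-recurring genes (33.5%), beside 65.5% of the 914 higher genes and 60.2% of all genes compared. A few spermatocyte and sperm genes were among them. *aly*, a regulator of the meiotic gene programme, had 108 and 182 reads in GB, a level of 22.3 and 42.2 RPKM, and 2 and 0 reads in niche. It had no read in S4 or S8 and stood at 103 RPKM in EC. Of its complex and the testis TAFs, 1 of 13 genes was higher, *aly* itself, and 1 lower, *topi*. These shares were 7.69% each, beside 7.74% and 7.62% of all genes compared. The value of *topi* came from niche library a (16.1 RPKM), and its difference was 0.61 without that library. *can* and *comr*, of the same programme, had no read in niche or GB.

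Of 30 spermatid and sperm genes 5 were higher (16.7%), and each came from GB library a alone. *Mst87F*, a sperm tail protein, stood at 129 RPKM in GB library a, from 130 reads, and had no read in b, niche, S4 or S8. *Mst84Da*, *Mst84Dd*, *ocn* and the protamine gene *Mst35Ba* stood at 19.7 to 52.1 RPKM in library a and had no read in b, niche, S4 or S8. The count was 1 without that library, and that gene was not among these 5, since GB library b held no read of them. The 7 spermatocyte markers summed to 154 RPKM in GB library a and 42.2 RPKM in b, beside 17.3 and 0 RPKM in niche. *aly* thus differed from the sperm genes in being present in both GB libraries.

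Ribosomal protein genes (93 members), nucleolar ribosome biogenesis genes (19), respiratory chain genes (22) and heat shock genes (18) had no member counted as higher or lower. Ribosomal proteins had a median difference of -0.76, and 0.03 under quantile scaling, and respiratory chain genes one of -0.78, and 0.00. The median ribosomal protein gene lay at 85.8 and 84.8% of 1 read per base in niche and at 76.5 and 77.1% in GB, beside a ceiling that was lower in GB, and the part of that ceiling in these medians was not tested. Fusome and ring canal genes, which join the cells of a cyst, were lower in 2 of 24 members (8.33%), *bond* and *cher*, with a median of 0.06. Of 19 adhesion genes 3 were lower (15.8%), *nrv2*, *dlg1* and *Fas2*. The higher one, *mys*, an integrin, had a difference of 2.02 that was -0.56 without GB library a.

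Of 18 sex determination genes, 3 were lower (16.7%) and 1 was higher (*vir*), 6 were lower without GB library b, and 3 were higher without GB library a. Besides *Her*, which is not an established member of that pathway, these were *ovo*, a germline transcription factor at 14.8 and 22.7 RPKM in niche with no read in GB, and *ix*, a partner of Doublesex. *roX1*, a non-coding RNA that guides X chromosome dosage compensation, was the lower one of 7 genes of that process (14.3%). It stood at 166 and 130 RPKM in niche and 9.87 and 50.5 RPKM in GB. Whether reads were counted by strand is not stated in the sources, so reads of overlapping antisense genes cannot be told apart here.

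In the apoptosis list, 2 of 13 genes were higher (15.4%) and 1 was lower (7.69%), beside 7.74% and 7.62% of all genes compared. *Nc* (*Dronc*), the initiator caspase, stood at 9.92 and 0 RPKM in niche and 25.1 and 32.0 RPKM in GB. *th* (*Diap1*), the caspase inhibitor, came from GB library b (51.7 RPKM, 0.592 in a), with a difference of -1.94 without it, and *Buffy*, a Bcl-2 relative, from niche library b (80.1 RPKM), with a difference of 0.06 without it. The ecdysone list had 2 lower genes of 17 (11.8%), *ImpL2* and *spo*, and 1 higher (5.88%), *Eip71CD* (current symbol *MsrA*). *Eip71CD*, a methionine sulfoxide reductase, stood at 82.6 and 126 RPKM in GB and 4.85 and 0.765 RPKM in niche.

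**Figure D4:**
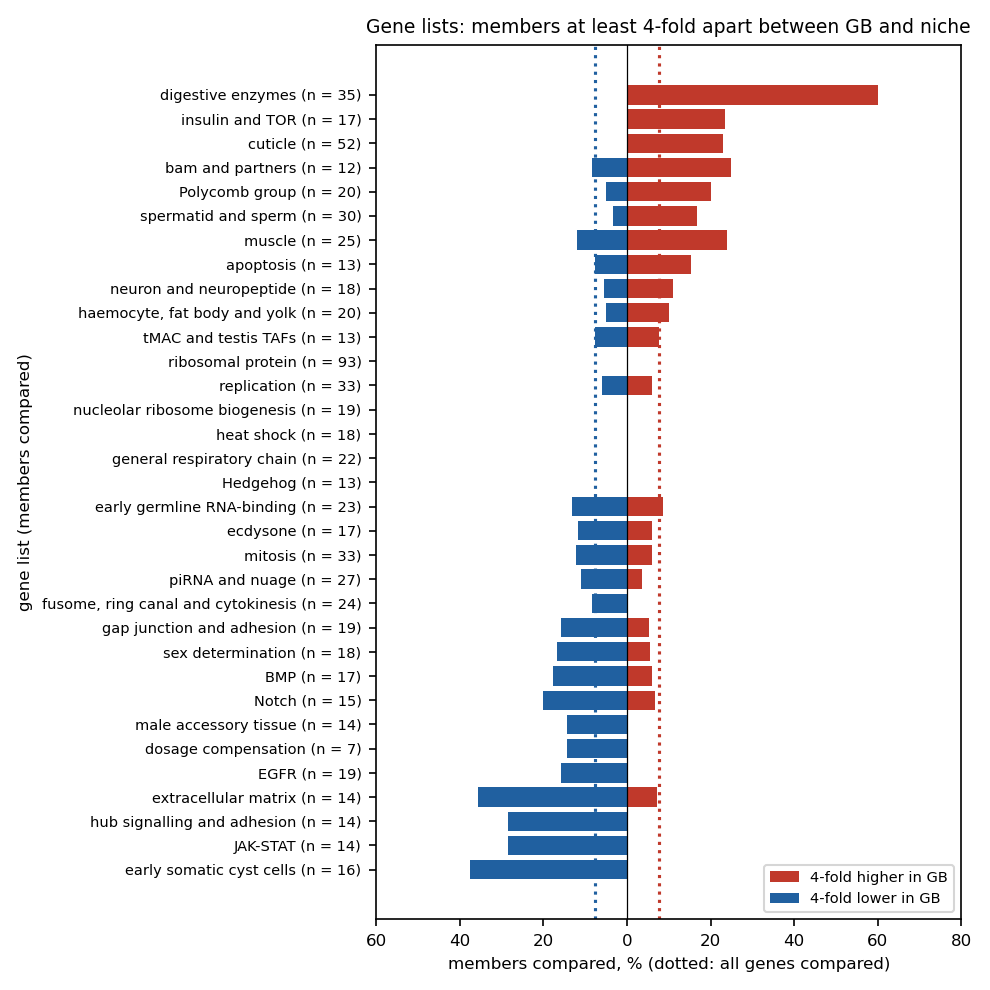
Share of the members compared, in percent, that were at least 4-fold higher (red, to the right) or lower (blue, to the left) in GB for each of 33 gene lists, ordered by the difference. Dotted lines mark the shares over all genes compared, 7.74% higher and 7.62% lower, and the digestive list stands at 60%.

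Of 20 haemocyte, fat body and yolk genes, 2 were higher (10%), *Drs* and *Fst*, and 1 was lower (5%), *Yp3*. Over all genes compared, these shares were 7.74% and 7.62%. The antimicrobial gene *Drs* (35.1 RPKM) and *Fst* (34.5 RPKM) were read in b alone of the GB libraries, and their differences were -0.95 and -1.32 without it. *Yp3*, a yolk protein gene, stood at 97.5 and 10.7 RPKM in niche, at 0 and 2.12 RPKM in GB and at 39.1 to 146 RPKM in S4 and S8. The 7 haemocyte and fat body markers summed to 98.2 and 11.5 RPKM in niche and 6.83 and 5.73 RPKM in GB, and *Yp1* and *Yp2* had no read in either. Of 18 neuronal genes, 2 were higher (11.1%), *Lk* and *Ast*, and 1 was lower (5.56%), *7B2*. *Lk* and *Ast*, which encode neuropeptides, were read in b alone of the GB libraries, at 99.1 and 18.2 RPKM. The difference of *Lk* was -1.64 without that library. Of 14 genes of male accessory tissue, 2 were lower (14.3%), *Acp54A1* and *Acp70A*, from 17 and 11 reads in niche library a.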

How the data were processed

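The authors deposited 1 table of RPKM values, per the file headers, with 12810 genes and 1 value for each of 9 stages. Bowtie 0.12.7 and edgeR are named, without roles, in the submitters' processing notes. The genome build and annotation of the authors: not given in the sources used here. Each stage value equals the mean over libraries of whole reads divided by gene length and an effective library size. Reads were recovered for 12808 of 12810 genes in the niche, GB, S4 and S8 libraries, within 1e-07 reads; *dp* and *Msp-300* have stage values alone. Gene lengths came from the annotation for 2829 genes and from a search for 9931, so the absolute reads of a gene may be off by a common factor, while its RPKM per library is not. Recovery found 20 libraries where 19 are labelled (LC2: 3 against 2). Floors cover counting error only, since amplified reads without molecular identifiers are not independent molecules.

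Differences are log2(RPKM + 1) of the deposited stage values, GB minus niche. A planned fit with limma 3.58.1 (R 4.3.3) on the 20 libraries is not used for calls, because over 5% of its calls were false in simulated data. The recovery and the fit were tested on simulated data. Python 3.11.15, NumPy 2.4.6, pandas 2.3.3, numba 0.67.0 and matplotlib 3.10.9 were used. Coordinates and current symbols came from Ensembl BDGP6.54 (release 115) by gene identifier, with 12208 matched.

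The comparison, the 33 gene lists and the named genes were chosen with earlier results of these data known. Named genes are the 4 markers *bam*, *os*, *gbb* and *lin-28*, the 15 largest differences each way, the 3 largest past 4-fold in each list and direction, and the 10 highest values among non-recurring, recurring and returning genes. Other list members and markers are named as examples, chosen after their values were seen. Dropped from lists as wrong matches were *CG1239*, *Cpr*, *Acph-1* and *Spn2*.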

Additional observations from a re-analysis of the deposited data

How the results depend on the processing

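In this order, the counts are genes higher, lower, higher and not recurring, higher and recurring, and returning after GB (914, 900, 212, 562 and 189 as reported). They were 509, 547, 94, 266 and 75 with a pseudocount of 5, and 564, 539, 132, 292 and 93 at 8-fold. With at least 20 RPKM on the higher side, the higher, non-recurring, recurring and returning counts were 560, 102, 341 and 99. With each pair of libraries at least 4-fold apart, 267 genes were higher and 321 lower. A pseudocount of 0.1, no filter on low values, no minimum on the higher side, and sum and quantile scaling kept all 5 counts within 1.5 times. Leaving out each GB and niche library in turn gave 845 to 1379 higher, 835 to 1483 lower, 185 to 242 non-recurring, 460 to 970 recurring and 150 to 634 returning genes. The limma fit passed 634 genes as higher and 778 as lower (adjusted p under 0.05, Benjamini-Hochberg, and 8 RPKM), of which 473 and 541 were also past 4-fold.

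Of 1024 recomputed differences of 128 named genes, 12 changed sign, 152 moved by more than the spread between libraries and 117 came under 4-fold. The sign changed without GB library a for *Cdc6* (range over the libraries left out -1.19 to 3.97), *mys* (-0.56 to 2.90) and *png* (-2.43 to 4.00). It changed without GB library b for *Drs* (-0.95 to 4.22), *Fst* (-1.32 to 4.19), *Lk* (-1.64 to 5.66), *Ppn* (-1.30 to 3.78) and *th* (-1.94 to 3.11). It changed without niche library a for *Dad* (-4.55 to 0.81) and *topi* (-3.49 to 0.61), and without niche library b for *Act79B* (-3.51 to 0.43) and *Buffy* (-3.23 to 0.064). In each, the library left out held most reads of the higher stage. Of 198 recomputed list medians, 61 moved. No paired analysis was possible because the recovered libraries carry no replicate number. Depth limits what a 0 means: below 1.40 to 2.65 RPKM, depending on the library, a gene of 1 kb held fewer than the 3 reads taken as the floor.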
